A study of Mus musculus with 12 samples.

Results

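Haematopoietic stem cells (HSCs) of mice labelled knockout (KO) for Cd38 were compared with wild-type (WT) HSCs after 24 hours outside the body with cytokines. The comparison rests on 4 of the 12 libraries of the study, picked by their labels as young, ex vivo and cytokine-stimulated: 2 WT libraries, which the titles number 1 and 2, and 2 KO libraries, numbered 3 and 4. Both genotypes came from mice aged 2 months, and the cells had been sorted before culture as lacking lineage markers and carrying c-Kit and Sca-1, a gate that also holds multipotent progenitors. The other libraries were made from freshly isolated cells of both genotypes, some from mice aged 2 months and some from mice aged 24 months. The labels name neither the cytokines nor the strain, the allele or the deleted part of Cd38. Separate mice or cultures per library are not stated, and the p-values therefore rest on a spread that may be technical. The design text gives the question as how CD38 acts on the fate of HSCs, here during activation by cytokines.

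HSCs divide rarely in the marrow, and cytokines in culture bring them into the cell cycle and start their differentiation towards myeloid, lymphoid, erythroid and megakaryocyte progenitors. CD38 is a membrane enzyme that cleaves NAD and makes cyclic ADP-ribose, a second messenger that releases calcium from intracellular stores, and it is also known as a surface marker of activated blood cells. Megakaryocytes and HSCs share many transcripts of adhesion, caveolae and platelet granules. Eosinophils and neutrophils arise from granulocyte progenitors, whose granule proteins are transcribed well before the cells mature.

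Each library counted tags at the 3′ ends of polyadenylated transcripts, and the WT libraries held 2792521 and 2801629 counts, the KO libraries 3249721 and 2692245. Levels are CPM, the counts of a gene relative to the TMM-scaled total of its library, given per library in the order WT replicate 1, WT replicate 2, KO replicate 3, KO replicate 4. Cd38 itself (mm10, chromosome 5, 43868809 to 43912374) stood at 1.09 and 9.41 CPM in WT and 3.97 and 2.59 CPM in KO, from 3, 26, 13 and 7 counts, and did not pass edgeR's quasi-likelihood test (log2 -0.66 ± 0.87, adjusted p = 0.855). Because tags come from the last part of a transcript, they need not fall in the deleted part, and Cd38 counts are no check of the labels, which are used as given. The sort marker c-Kit is encoded by Kit, which stood at 208 and 232 CPM in WT and 288 and 369 CPM in KO (adjusted p = 0.0962 by edgeR) and Ly6a, which encodes Sca-1, at 64.0 and 43.0 CPM in WT and 114 and 80.4 CPM in KO (adjusted p = 0.119). Cd3e of T cells and Ly6g of mature neutrophils had 0 counts in all 4 libraries. Of 27 markers of stroma, endothelium, liver and other tissues outside the blood, 14 had 0 counts throughout, Cdh5 of endothelium among them. Xist, which silences an X chromosome in females, was present in all 4 libraries at 550.2 to 816 CPM. Ddx3y, a gene of the Y chromosome, had 1, 2, 21 and 6 counts.

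Of 10494 genes with enough counts, 129 (1.23%) differed between KO and WT by edgeR's test at a Benjamini-Hochberg adjusted p under 0.05. In KO 80 genes (0.762%) were higher and 49 (0.467%) lower. Counts in 1 genotype alone could bring a gene into the test, as with Evc2, Meis2, Sema3d, Kcng1 and Clec2i. A gene is called changed, risen or fallen here only where it passed this test, and fold changes are log2 of KO over WT ± standard error. All 129 had both KO libraries on the same side of both WT libraries. Such a separation alone was common: 2210 genes (21.1%) had both KO libraries above both WT libraries and 2161 (20.6%) both below, whatever the size of the gap. The median change over all genes tested was -0.000193 on the log2 scale, 49.98% of them were positive, and 1143 genes had an unadjusted p under 0.05. Of the changed genes 40 averaged at least 100 CPM, 23 of them higher and 17 lower, and 38 changed by more than log2 2 in size. In bulk RNA, fewer cells of a type and less of a transcript in each cell cannot be told apart, which holds for every gene below.

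**Figure D1:**
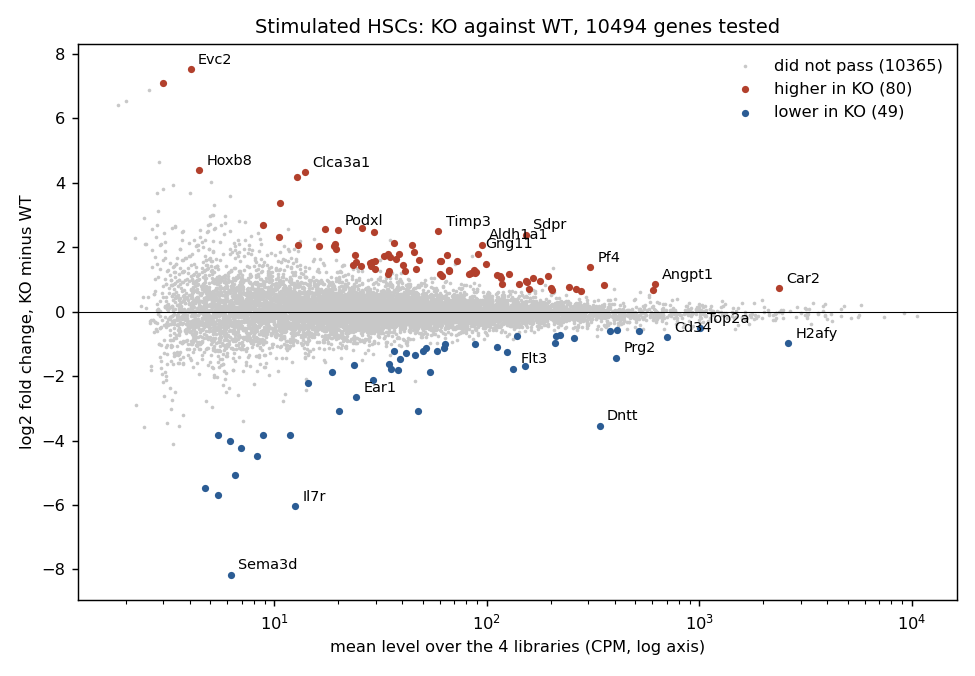
Each point is 1 of 10494 genes, with its mean level over the 4 libraries in CPM on a logarithmic x axis and its log2 fold change of KO over WT on the y axis; red marks the 80 genes higher in KO, blue the 49 lower and grey those that did not pass. Abundant changed genes such as Car2 and H2afy changed by less than log2 1, and the largest changes, such as Sema3d and Evc2, belong to genes with few counts.

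The changed genes were not equally steady across the libraries. Common dispersion was 0.0330, a coefficient of variation of 18.2% between replicates, and the correlation of log2 CPM over genes (not independent of each other) was 0.957 within WT, 0.955 within KO and 0.929 to 0.952 between genotypes. Among the 49 lower genes, WT replicate 2 was at least 1.5 times WT replicate 1 in 21 and the reverse held in 1. Among the 80 higher genes, KO replicate 4 was at least 1.5 times KO replicate 3 in 25 and the reverse held in 1. With all 12 libraries in 1 fit, those of mice aged 24 months included, edgeR called 0 of the genes, and 57 of 11548 had an unadjusted p under 0.05 there. On the 4 libraries DESeq2 called 129 genes, 121 of them the same, and limma voom 84, 83 of them the same. With each library left out in turn 24 to 296 genes were called. The signs of the 129 genes were the same in each of these settings, except that 1 gene had no value without KO replicate 4. 11 genes passed with each of the 4 libraries left out: Aldh1a1, Timp3, Gng11, Sdpr, Clca3a1, Tgm2, Esam and Col16a1 among the higher, and Dntt, Satb1 and Ear1 among the lower. Samd12 and Meis2, both picked after their values were seen, passed in none of the 4. Where a library is left out, the spread of its genotype's single remaining library is taken from the other genotype.

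Of 33 tested genes of a megakaryocyte and platelet list 8 rose and 0 fell, 31 were positive and the list's median was 0.82 against -0.000193 over all genes. The risen genes were 24.2% of those tested, against 0.762% over all genes. Like the lists below, this list was chosen with earlier results of these data known. The summed level of the list was 2149.9 and 1837 CPM in WT and 2919 and 3476 CPM in KO, and Tubb1, the tubulin of mature platelets, had 0 counts in all libraries. Pf4, the chemokine platelet factor 4 (mm10, chromosome 5, 90772435 to 90773383), stood at 220.3 and 119 CPM in WT and 416 and 473 CPM in KO (log2 1.39 ± 0.21, adjusted p = 0.00476). Mmrn1, which encodes multimerin, a large protein of platelet granules (chromosome 6, 60944317 to 60989378), stood at 61.1 and 43.8 CPM in WT and 123 and 169.6 CPM in KO (log2 1.48 ± 0.22, adjusted p = 0.00386). Both KO libraries were above both WT libraries for each, as for all the higher genes, and the WT libraries differed more in Pf4 than the KO libraries did. Tbxas1, thromboxane synthase, which makes the lipid that activates platelets, stood at 74.9 and 71.6 CPM in WT and 116 and 199 CPM in KO (log2 1.10 ± 0.22, adjusted p = 0.0252). F2r, the thrombin receptor, stood at 88.7 and 79.2 CPM in WT and 133 and 170.0 CPM in KO (log2 0.85 ± 0.18, adjusted p = 0.0323). Rab27b, a small GTPase of granule release, stood at 14.2 and 15.2 CPM in WT and 43.7 and 41.5 CPM in KO (log2 1.53 ± 0.29, adjusted p = 0.0168), and its 4 values fell into 2 tight pairs. Itgb3, the integrin chain of the platelet fibrinogen receptor, stood at 16.4 and 11.2 CPM in WT and 35.1 and 39.3 CPM in KO (log2 1.43 ± 0.32, adjusted p = 0.04). Vwf, von Willebrand factor, stood at 2.18 and 1.45 CPM in WT and 10.7 and 28.2 CPM in KO (log2 3.38 ± 0.65, adjusted p = 0.0185). Pf4 (adjusted p = 0.0886), F2r (0.093), Rab27b (0.149) and Itgb3 (0.183) did not pass edgeR's test without KO replicate 3, nor did Mmrn1 (0.0563), Tbxas1 (log2 0.66, 0.472), F2r (0.423), Rab27b (0.0822), Itgb3 (0.284) and Vwf (0.49) without KO replicate 4, nor did F2r (0.0871) and Itgb3 (0.153) without WT replicate 2. Itgb3 (adjusted p = 0.0627) and Vwf (0.207) did not pass with limma voom and Pf4 (0.0971) did not pass with DESeq2. The number of changed members was 4 without KO replicate 3, 1 without KO replicate 4, 12 without WT replicate 1 and 7 without WT replicate 2.

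The promoters of Pf4 and Mmrn1 are shown because these were the abundant platelet genes with the smallest p, and because GATA factors act in megakaryocytes. The windows run from 250 bases before the transcription start to 50 after it, 5′ to 3′ on the gene's strand, from RefSeq on GRCm38.p6, the assembly behind mm10. Pf4 lies at chr5:90772185-90772484, plus strand, and Mmrn1 at chr6:60944067-60944366, plus strand. Capitals mark the hexamers AGATAA in Pf4 and TGATAA in Mmrn1.
Pf4: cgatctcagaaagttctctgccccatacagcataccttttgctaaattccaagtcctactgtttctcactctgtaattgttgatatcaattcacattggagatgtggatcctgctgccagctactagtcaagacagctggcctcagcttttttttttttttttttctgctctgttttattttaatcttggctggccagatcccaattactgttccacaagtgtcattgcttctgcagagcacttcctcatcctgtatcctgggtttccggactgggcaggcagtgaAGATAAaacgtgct
Mmrn1: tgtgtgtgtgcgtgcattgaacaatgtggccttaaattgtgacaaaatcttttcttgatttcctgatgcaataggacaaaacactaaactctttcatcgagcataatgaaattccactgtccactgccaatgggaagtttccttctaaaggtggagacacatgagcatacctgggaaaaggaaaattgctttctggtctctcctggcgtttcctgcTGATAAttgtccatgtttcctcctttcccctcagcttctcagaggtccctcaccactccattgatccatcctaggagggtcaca
In Pf4 the hexamer begins at base 37 after the start, and in Mmrn1 at 34 bases before it. Searched on both strands and counted separately, AGATAA was in 10.1% of 69 promoters of the higher genes, 13.3% of 75 promoters of the lower genes, 6.36% of those of all genes tested and 11.2% of all in the table. TGATAA was in 8 of the 69 (11.6%), 12 of the 75, and 4.36% and 9.05% of the last 2 sets. A gene can have several promoters in the table. A match of letters is a description of the window and not a measured site. RefSeq promoters were found for 53 of the 80 higher and 42 of the 49 lower genes.

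Caveolae are small pits of the plasma membrane with a protein coat. Of 10 tested genes of the list of caveolae and membrane coat 3 rose and 0 fell, and 7 were positive, with a median of 0.30. The risen genes were 30% of those tested, against 0.762% over all genes. Cav1 and Ehd2 of this list had too few counts to be tested. Sdpr, now named Cavin2, stood at 68.7 and 29.3 CPM in WT and 192 and 322 CPM in KO (log2 2.39 ± 0.30, adjusted p = 0.0018). Ptrf, now Cavin1, which coats caveolae together with it, stood at 59.98 and 45.2 CPM in WT and 101 and 144 CPM in KO (log2 1.22 ± 0.22, adjusted p = 0.0148). Ehd3, an ATPase that shapes endosomal membranes, stood at 7.997 and 6.51 CPM in WT and 28.7 and 34.1 CPM in KO (log2 2.10 ± 0.37, adjusted p = 0.0114). Rab11a, Scamp1, Rap1b and Anxa5, which are in no list, rose as well. Rab11a, a GTPase of recycling endosomes, stood at 219.6 and 182 CPM in WT and 339 and 316 CPM in KO (log2 0.71 ± 0.15, adjusted p = 0.0267), and Scamp1, a carrier protein of secretory membranes, at 82.5 and 68.7 CPM in WT and 137 and 178 CPM in KO (log2 1.06 ± 0.19, adjusted p = 0.0137). These were smaller steps than in the caveolae genes, from higher WT levels. Rap1b, a Ras-like GTPase that activates integrins, stood at 510.4 and 419 CPM in WT and 817 and 674 CPM in KO (log2 0.68 ± 0.14, adjusted p = 0.0252), and Anxa5, a protein that binds phosphatidylserine in membranes, at 109 and 92.2 CPM in WT and 151 and 214 CPM in KO (log2 0.86 ± 0.19, adjusted p = 0.0383). Ptrf (adjusted p = 0.0522), Ehd3 (0.0833), Rab11a (0.22), Scamp1 (0.0537), Rap1b (0.286) and Anxa5 (0.0654) did not pass edgeR's test without KO replicate 3, nor did Ptrf (0.228), Ehd3 (0.119), Rab11a (0.142), Scamp1 (0.185), Rap1b (0.064) and Anxa5 (0.529) without KO replicate 4, nor did Rab11a (0.102) and Anxa5 (0.0867) without WT replicate 2. Sdpr passed with each library left out in turn. Anxa5 (adjusted p = 0.0532) did not pass with limma voom. The count of changed caveolae genes was 1 without KO replicate 3, 1 without KO replicate 4, 3 without WT replicate 1 and 3 without WT replicate 2.

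Changed genes of secreted and surface proteins are described 1 by 1, and the list of endothelial and vascular surface genes follows at the end. Angpt1, the ligand of the receptor Tie2 (chromosome 15, 42424667 to 42676977), stood at 426 and 450.4 CPM in WT and 695 and 894 CPM in KO (log2 0.86 ± 0.14, adjusted p = 0.00617). Tek, which encodes Tie2, stood at 14.5 and 2.89 CPM in WT and 21.4 and 28.9 CPM in KO and did not pass (adjusted p = 0.234 by edgeR). Timp3, an inhibitor of matrix proteases, stood at 15.99 and 19.5 CPM in WT and 75.1 and 126 CPM in KO (log2 2.49 ± 0.28, adjusted p = 0.000869), and the collagen gene Col16a1 at 16.7 and 17.7 CPM in WT and 54.3 and 65.2 CPM in KO (log2 1.79 ± 0.26, adjusted p = 0.00386). Of 16 tested genes of matrix proteins, proteases and their inhibitors, Timp3 was the 1 that changed, and the list does not hold Col16a1. Podxl, a sialomucin of vessels and early blood progenitors, stood at 5.45 and 6.15 CPM in WT and 35.4 and 32.2 CPM in KO (log2 2.54 ± 0.37, adjusted p = 0.00386) and F11r, the junction protein JAM-A, at 111 and 95.9 CPM in WT and 179 and 224 CPM in KO (log2 0.96 ± 0.17, adjusted p = 0.0124). Itga6, an integrin chain that binds laminin, stood at 206 and 157 CPM in WT and 275 and 339 CPM in KO (log2 0.75 ± 0.16, adjusted p = 0.0363), and of 24 tested integrins and tetraspanins 2 rose and 1 fell. Tgfbr3, the TGF-β co-receptor betaglycan, stood at 15.3 and 23.9 CPM in WT and 47.3 and 94.5 CPM in KO (log2 1.85 ± 0.33, adjusted p = 0.0143) and was the 1 gene of 27 tested in the TGF-β and BMP list, which lacks Gdf3, to change. Plxnc1, a receptor for semaphorins, stood at 114 and 131 CPM in WT and 198 and 330.0 CPM in KO (log2 1.11 ± 0.20, adjusted p = 0.0166). In Timp3, Tgfbr3 and Plxnc1 the KO libraries were at least 1.5 times apart, with replicate 4 the higher. Podxl (adjusted p = 0.0693), F11r (0.0537) and Itga6 (0.136) did not pass edgeR's test without KO replicate 3, nor did Angpt1 (0.149), F11r (0.174), Itga6 (0.424), Tgfbr3 (0.224) and Plxnc1 (log2 0.69, 0.253) without KO replicate 4, nor did Itga6 (0.121) without WT replicate 2. Timp3 and Col16a1 passed with each library left out in turn. Over the whole list of endothelial and vascular surface genes 4 of 20 rose (Esam, Podxl, Mmrn1 and Vwf) and 2 fell (Cd34 and Egfl7), with a median of 0.54 and 5 of the 31 members at 0 counts throughout. Together the changed members were 30% of those tested, against 1.23% over all genes.

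Among changed genes of signalling and actin, some rose and some fell. Gng11, a γ subunit of heterotrimeric G proteins (chromosome 6, 4003987 to 4008445), stood at 44.7 and 36.5 CPM in WT and 122 and 161 CPM in KO (log2 1.80 ± 0.21, adjusted p = 0.000956), and the other 26 tested G proteins and regulators did not pass. Mylk, myosin light chain kinase, stood at 31.3 and 27.1 CPM in WT and 71.4 and 129 CPM in KO (log2 1.77 ± 0.27, adjusted p = 0.00481) and Phactr1, a regulator of actin and protein phosphatase 1, at 5.82 and 3.98 CPM in WT and 22.6 and 36.7 CPM in KO (log2 2.58 ± 0.43, adjusted p = 0.00923). Fhl1, a LIM-domain protein of the actin skeleton, stood at 7.27 and 7.60 CPM in WT and 16.5 and 44.8 CPM in KO (log2 2.03 ± 0.46, adjusted p = 0.0461), where KO replicate 4 was far above replicate 3. Myl10, a myosin light chain, went the other way at 268 and 284 CPM in WT and 158 and 125 CPM in KO (log2 -0.96 ± 0.16, adjusted p = 0.00713), as did the tropomyosin gene Tpm4 at 66.2 and 74.9 CPM in WT and 33.9 and 25.9 CPM in KO (log2 -1.23 ± 0.24, adjusted p = 0.0207). Grb10, an imprinted adaptor that binds insulin and growth factor receptors, stood at 33.8 and 38.3 CPM in WT and 70.8 and 147 CPM in KO (log2 1.58 ± 0.29, adjusted p = 0.0148), and of 14 tested imprinted genes it was the 1 that changed. Tpm4 (adjusted p = 0.1) did not pass edgeR's test without KO replicate 3, nor did Mylk (0.0822), Phactr1 (0.164), Fhl1 (log2 1.14, 0.744), Myl10 (0.124), Tpm4 (0.23) and Grb10 (log2 0.97, 0.268) without KO replicate 4. Gng11 passed with each library left out in turn. Phactr1 (adjusted p = 0.0532) and Fhl1 (0.211) did not pass with limma voom.

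Gucy1a3, Pde2a, Ryk, Gdf3, Slc6a15 and Gimap5 fell outside the naming rule and were picked after their values were seen. Gucy1a3, now Gucy1a1, a subunit of the guanylate cyclase that nitric oxide activates, stood at 11.996 and 18.8 CPM in WT and 38.2 and 44.8 CPM in KO (log2 1.42 ± 0.31, adjusted p = 0.0363). Pde2a, a phosphodiesterase that breaks down cyclic GMP and cyclic AMP, stood at 27.6 and 44.1 CPM in WT and 8.24 and 14.8 CPM in KO (log2 -1.65 ± 0.37, adjusted p = 0.0418). Its value is uncertain, since 53.2% of the 50-base words in the last 500 bases of its transcripts also occur in the gene model Gm45837. Ryk, a receptor for Wnt ligands, stood at 17.1 and 13.7 CPM in WT and 36.03 and 70.4 CPM in KO (log2 1.78 ± 0.34, adjusted p = 0.0168) and Gdf3, a ligand of the TGF-β family, at 16.4 and 13.4 CPM in WT and 53.1 and 35.6 CPM in KO (log2 1.58 ± 0.31, adjusted p = 0.021). Slc6a15, a transporter of neutral amino acids, stood at 14.2 and 22.4 CPM in WT and 45.2 and 68.2 CPM in KO (log2 1.62 ± 0.31, adjusted p = 0.0168). Gimap5, a GTPase of lymphocyte and stem cell survival, stood at 18.5 and 29.7 CPM in WT and 49.2 and 67.4 CPM in KO (log2 1.27 ± 0.29, adjusted p = 0.0418). Gucy1a3 (adjusted p = 0.166), Pde2a (0.286), Gdf3 (0.229), Slc6a15 (0.0562) and Gimap5 (0.136) did not pass edgeR's test without KO replicate 3, nor did Gucy1a3 (0.275), Pde2a (0.0572), Ryk (0.339), Slc6a15 (0.224) and Gimap5 (0.417) without KO replicate 4, nor did Pde2a (0.255) without WT replicate 2, nor did Gucy1a3 (0.0785) and Gimap5 (0.0827) without WT replicate 1. Gucy1a3 (adjusted p = 0.0552), Pde2a (0.0627), Ryk (0.0552) and Gimap5 (0.0568) did not pass with limma voom.

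Of 42 tested genes of the interferon response 3 rose and 0 fell, 35 were positive and the median was 0.34. The risen genes were 7.14% of those tested, against 0.762% over all genes, of which 49.98% were positive. Ifitm3, a membrane protein that blocks virus entry (chromosome 7, 141009590 to 141010744), stood at 136 and 106 CPM in WT and 234 and 237 CPM in KO (log2 0.96 ± 0.16, adjusted p = 0.00938), but 13.97% of the words in its last 500 bases recur in other genes and its count is uncertain to that extent. Irgm2, an immunity-related GTPase, stood at 27.6 and 24.96 CPM in WT and 76.6 and 56.3 CPM in KO (log2 1.34 ± 0.25, adjusted p = 0.0168), and Iigp1, a GTPase of the same family that acts on parasite vacuoles, at 51.3 and 51.7 CPM in WT and 140.1 and 95.2 CPM in KO (log2 1.195 ± 0.22, adjusted p = 0.0143). In both GTPase genes KO replicate 3 was the higher KO library. Igtp, another member of the family, stood at 56.3 and 31.1 CPM in WT and 101 and 66.7 CPM in KO and did not pass (adjusted p = 0.15 by edgeR). The chemokine gene Cxcl10 was barely counted, at 0 and 0.362 CPM in WT and 5.19 and 5.93 CPM in KO, and did not pass either (adjusted p = 0.0811). Ifitm3 (adjusted p = 0.122), Irgm2 (0.191) and Iigp1 (0.201) did not pass edgeR's test without KO replicate 3, nor did Ifitm3 (0.064) without KO replicate 4. The number of changed members was 0 without KO replicate 3, 2 without KO replicate 4, 5 without WT replicate 1 and 3 without WT replicate 2.

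The promoters of Irgm2 (chr11:58214727-58215026, plus strand) and Ifitm3 (chr7:141010695-141010994, minus strand) are printed for the binding sequence of interferon regulatory factors (IRFs), with the same window, source and orientation as above. Capitals mark matches to GAAA, any 2 bases and GAAA again.
Irgm2: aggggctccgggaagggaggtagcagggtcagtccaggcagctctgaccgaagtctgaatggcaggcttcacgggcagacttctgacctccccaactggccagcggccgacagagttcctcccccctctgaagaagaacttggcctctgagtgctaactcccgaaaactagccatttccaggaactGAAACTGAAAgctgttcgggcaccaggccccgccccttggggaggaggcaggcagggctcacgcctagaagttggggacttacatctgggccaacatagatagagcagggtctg
Ifitm3: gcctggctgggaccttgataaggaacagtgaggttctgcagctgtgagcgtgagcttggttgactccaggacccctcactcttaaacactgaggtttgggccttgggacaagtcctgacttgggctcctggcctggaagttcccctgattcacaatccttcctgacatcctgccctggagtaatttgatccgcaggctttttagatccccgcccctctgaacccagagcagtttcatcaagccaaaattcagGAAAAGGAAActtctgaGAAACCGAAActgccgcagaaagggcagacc
The match in Irgm2 begins 64 bases before the start, and those in Ifitm3 at bases 3 and 20 after it. On both strands the sequence was in 7 of 69 promoters of the higher genes (10.1%), 4.00% of those of the lower genes, 3.12% of those of all genes tested and 3.44% of all in the table. The 7 belong to Irgm2, Ifitm3, Mecom, Clca3a1, Mmrn1, Mylk and Plxnc1. Of these genes only Irgm2 and Ifitm3 are in the interferon list. Iigp1, which also rose in that list, had no match, for want of either the sequence or a promoter in the table.

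Among 61 tested haematopoietic transcription factors 7 rose and 2 (Ebf1 and Irf8) fell, and 37 were positive, with a median of 0.13. Together the changed factors were 14.8% of those tested, against 1.23% over all genes. Mecom, a zinc finger factor that HSCs require (chromosome 3, 29951296 to 30509759), stood at 59.3 and 42.3 CPM in WT and 86.7 and 141 CPM in KO (log2 1.16 ± 0.25, adjusted p = 0.0314), and its relative Prdm16 at 14.9 and 15.2 CPM in WT and 32.4 and 68.2 CPM in KO (log2 1.73 ± 0.35, adjusted p = 0.0242). Mllt3, a cofactor of transcript elongation that sustains human HSCs in culture and is not in that list, stood at 57.1 and 43.8 CPM in WT and 90.1 and 158 CPM in KO (log2 1.29 ± 0.25, adjusted p = 0.0207). Mycn, which encodes N-Myc, stood at 45.1 and 32.2 CPM in WT and 113 and 74.5 CPM in KO (log2 1.28 ± 0.25, adjusted p = 0.0209), with KO replicate 3 the higher, the opposite order to Mecom, Prdm16 and Mllt3. Tcf15, a basic helix-loop-helix factor of quiescent HSCs, stood at 18.2 and 15.6 CPM in WT and 38.2 and 47.4 CPM in KO (log2 1.34 ± 0.29, adjusted p = 0.0344), and the nuclear receptor gene Rora at 10.9 and 14.1 CPM in WT and 28.4 and 40.7 CPM in KO (log2 1.46 ± 0.34, adjusted p = 0.0494). Ebf1, a factor of B cell fate, stood at 6.18 and 37.98 CPM in WT and 0.916 and 2.22 CPM in KO, with WT replicate 2 far above WT replicate 1. Mecom (adjusted p = 0.0537), Mycn (0.259), Tcf15 (0.134), Rora (0.132) and Ebf1 (0.317) did not pass edgeR's test without KO replicate 3, nor did Mecom (log2 0.77, 0.49), Prdm16 (log2 1.10, 0.487), Mllt3 (log2 0.84, 0.389), Tcf15 (0.328), Rora (0.504) and Ebf1 (0.0943) without KO replicate 4, nor did Mecom (0.0659), Tcf15 (0.0945) and Ebf1 (log2 -1.97, 0.727) without WT replicate 2, nor did Rora (0.0682) without WT replicate 1. Prdm16 (adjusted p = 0.087), Tcf15 (0.0627), Rora (0.0969) and Ebf1 (0.352) did not pass with limma voom and Rora (0.0625) did not pass with DESeq2. The count of changed transcription factors was 4 without KO replicate 3, 1 without KO replicate 4, 13 without WT replicate 1 and 7 without WT replicate 2.

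Homeobox genes of the Hox clusters were mostly higher at low levels. Of 13 tested, 2 rose (15.4%, against 0.762% over all genes) and 0 fell, 11 were positive and the median was 1.16, while 7 of the 26 listed genes had 0 counts throughout. A gene could enter the test through counts in 1 genotype alone, so at these levels the signs and the median are description only. Summed over the list, the level was 219 and 281 CPM in WT and 309 and 467 CPM in KO. Hoxb3 stood at 10.2 and 5.79 CPM in WT and 24.4 and 37.4 CPM in KO (log2 1.94 ± 0.40, adjusted p = 0.0262). Hoxb8 had 2 counts in WT and 50 in KO, which is 23.1 times as much per library total (95% counting interval from 6.06 to 196; counting intervals and floors cover counting error only). Hoxb4 stood at 14.9 and 12.3 CPM in WT and 25.04 and 36.3 CPM in KO (adjusted p = 0.143 by edgeR) and Hoxb5 at 5.45 and 5.06 CPM in WT and 14.96 and 16.3 CPM in KO (adjusted p = 0.18), and neither passed. The TALE homeobox gene Meis2, picked after its values were seen, had 0 counts in WT and 35 in KO and was at least 10.8-fold higher against a floor of 3 counts over the WT libraries. Hoxb3 (adjusted p = 0.0994), Hoxb8 (0.204) and Meis2 (0.192) did not pass edgeR's test without KO replicate 3, nor did Hoxb3 (0.368), Hoxb8 (0.462) and Meis2 (0.408) without KO replicate 4, nor did Hoxb3 (0.0714), Hoxb8 (0.247) and Meis2 (0.198) without WT replicate 2, nor did Meis2 (0.146) without WT replicate 1. Hoxb8 stood at log2 7.63 without WT replicate 1, and passed. Hoxb3 (adjusted p = 0.0677), Hoxb8 (0.122) and Meis2 (0.0615) did not pass with limma voom and Hoxb8 (0.0587) did not pass with DESeq2. Changed Hox genes numbered 0 without KO replicate 3, 0 without KO replicate 4, 2 without WT replicate 1 and 1 without WT replicate 2.

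Enzymes of several pathways rose one by one, with no list of metabolism changing in more than 2 members. Car2, carbonic anhydrase 2 (chromosome 3, 14886269 to 14900770), was the most abundant higher gene at 1753 and 1811 CPM in WT and 2417 and 3481 CPM in KO (log2 0.73 ± 0.14, adjusted p = 0.0168). Nt5c3, which splits phosphate from pyrimidine nucleotides, stood at 257 and 255 CPM in WT and 410.1 and 496 CPM in KO (log2 0.82 ± 0.14, adjusted p = 0.00938), and Gda, guanine deaminase, at 158 and 143 CPM in WT and 236 and 269 CPM in KO (log2 0.75 ± 0.15, adjusted p = 0.0242). In both genes the WT libraries were close to each other and both KO libraries above them. Aldh1a1, a retinaldehyde dehydrogenase (chromosome 19, 20492583 to 20643463), had the smallest adjusted p of the higher genes at 37.4 and 35.1 CPM in WT and 130.1 and 177 CPM in KO (log2 2.08 ± 0.21, adjusted p = 0.000285). Art4, of the ADP-ribosyltransferase family and carrier of the Dombrock blood group, stood at 15.6 and 11.2 CPM in WT and 40.9 and 78.2 CPM in KO (log2 2.14 ± 0.34, adjusted p = 0.00617). Hacd4, a dehydratase of long fatty acid synthesis, stood at 40.7 and 36.5 CPM in WT and 86.7 and 101 CPM in KO (log2 1.28 ± 0.21, adjusted p = 0.00907). Gcnt1, which starts branches on O-linked sugar chains, stood at 67.3 and 70.9 CPM in WT and 149 and 158 CPM in KO (log2 1.15 ± 0.17, adjusted p = 0.00465), with the libraries of either genotype close to each other. Srxn1, sulfiredoxin, which reactivates oxidised peroxiredoxins, stood at 11.996 and 17.4 CPM in WT and 44.9 and 38.5 CPM in KO (log2 1.51 ± 0.31, adjusted p = 0.0252) and was the 1 gene to change of 35 tested antioxidant and metallothionein genes. Nt5c3 (adjusted p = 0.0537), Gda (0.123), Hacd4 (0.0654), Gcnt1 (0.0537) and Srxn1 (0.204) did not pass edgeR's test without KO replicate 3, nor did Car2 (log2 0.44, 0.424), Nt5c3 (0.172), Gda (0.276), Art4 (0.107), Hacd4 (0.101) and Srxn1 (0.0822) without KO replicate 4, nor did Gda (0.0663) without WT replicate 2. Aldh1a1 passed with each library left out in turn.

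**Figure D2:**
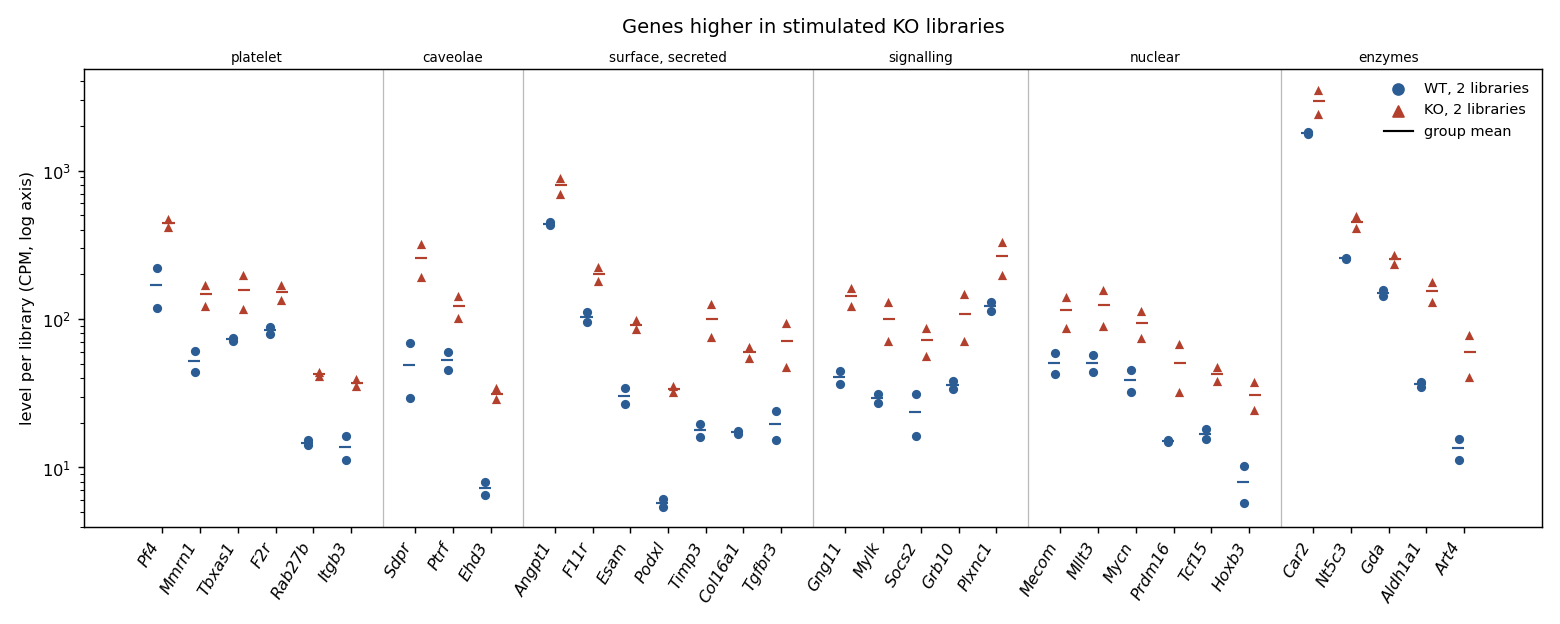
Level of 32 genes higher in KO in each library (CPM, logarithmic y axis); blue circles are the 2 WT libraries, red triangles the 2 KO libraries and lines the group means, and genes are ordered by role. Both KO libraries lie above both WT libraries in every gene shown, as in all the higher genes, and gaps between the KO libraries are wider in Mylk, Grb10 and Prdm16 than in Rab27b or Podxl.

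Of 16 tested genes of the mast cell, basophil and eosinophil list 4 fell and 0 rose, with a median of -0.95, and those 4, Prg2, Epx, Ear1 and Ear2, belong to eosinophils. The fallen genes were 25% of those tested, against 0.467% over all genes. Prg2, major basic protein (chromosome 2, 84980461 to 84983632), stood at 714 and 472 CPM in WT and 229 and 213 CPM in KO (log2 -1.42 ± 0.17, adjusted p = 0.0011). Epx, eosinophil peroxidase, stood at 60.3 and 44.5 CPM in WT and 15.3 and 18.5 CPM in KO (log2 -1.64 ± 0.28, adjusted p = 0.0114). The KO libraries were close to each other, and WT replicate 1 was the higher WT library for both genes. The eosinophil-associated ribonuclease gene Ear1 (chromosome 14, 43818765 to 43819639) stood at 46.9 and 37.3 CPM in WT and 7.94 and 5.19 CPM in KO (log2 -2.66 ± 0.35, adjusted p = 0.0024) and Ear2 at 20.7 and 26.8 CPM in WT and 6.11 and 4.07 CPM in KO (log2 -2.20 ± 0.44, adjusted p = 0.0239). Ear6, of the same family but not in the list, stood at 65.4 and 52.8 CPM in WT and 16.8 and 17.04 CPM in KO (log2 -1.80 ± 0.27, adjusted p = 0.00386). Mast cell and basophil genes of the list did not pass: Gata2, a transcription factor of both lineages and of HSCs, stood at 148 and 122 CPM in WT and 181 and 301 CPM in KO (adjusted p = 0.0706 by edgeR). Hdc, which makes histamine, stood at 193 and 171 CPM in WT and 147 and 94.5 CPM in KO (adjusted p = 0.204), and the basophil protease gene Mcpt8 at 32.4 and 23.5 CPM in WT and 17.1 and 10.001 CPM in KO (adjusted p = 0.254). The list summed to 2375 and 2035 CPM in WT and 1751 and 1761 CPM in KO, and Tpsab1, Il4 and Cd200r3 had 0 counts in all libraries. Prg2 (adjusted p = 0.0537), Epx (0.149), Ear2 (0.122) and Ear6 (0.071) did not pass edgeR's test without KO replicate 3, nor did Ear2 (0.174) without KO replicate 4, nor did Ear2 (0.116) without WT replicate 2. Ear1 passed with each library left out in turn. Ear2 (adjusted p = 0.0669) did not pass with limma voom. The number of changed members was 2 without KO replicate 3, 3 without KO replicate 4, 5 without WT replicate 1 and 3 without WT replicate 2.

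Ear1 and Ear2 cannot be assumed to be separate measurements, since how tags shared between genes were counted is not stated. Of the 50-base words in the last 500 bases of their transcripts, where tags are read, 57.1% of those of Ear1 and 38.1% of those of Ear2 also occur in another gene, among them other ribonuclease genes of the family. Their promoters, with the same window and source, show how close the copies are. Ear1 is at chr14:43819590-43819889, minus strand, and Ear2 at chr14:44102404-44102703, plus strand; capitals mark the bases that differ or are unpaired when the windows are aligned.
Ear1: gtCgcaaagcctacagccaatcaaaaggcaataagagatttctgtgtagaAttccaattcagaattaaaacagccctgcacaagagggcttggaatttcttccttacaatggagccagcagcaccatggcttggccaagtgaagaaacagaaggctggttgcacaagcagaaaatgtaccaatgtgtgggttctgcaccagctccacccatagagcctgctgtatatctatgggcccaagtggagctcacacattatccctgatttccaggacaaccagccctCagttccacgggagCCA
Ear2: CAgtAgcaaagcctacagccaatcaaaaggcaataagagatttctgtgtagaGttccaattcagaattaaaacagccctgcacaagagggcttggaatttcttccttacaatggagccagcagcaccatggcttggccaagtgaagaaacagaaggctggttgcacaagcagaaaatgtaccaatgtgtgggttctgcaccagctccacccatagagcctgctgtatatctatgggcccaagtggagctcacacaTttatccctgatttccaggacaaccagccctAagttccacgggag
The windows were 97.0% identical, with 6 capitals in each. The promoter of Ear6 was 80.7% identical to that of Ear1 and 79.0% to that of Ear2. Among other changed genes 20.9% of the end of Vpreb1 recurs in other genes, 14.6% of Clca3a1, 11.4% of Socs2, 16.4% of Cnn3, 16.7% of Rbpms2 and 10.1% of Trim47, and 90 of 128 changed genes had no such word.

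Most neutrophil and monocyte genes had negative values, and few passed. Of 26 tested neutrophil and granule genes 0 passed by edgeR, DESeq2 or limma voom, 11 had an unadjusted p under 0.05 and 25 were negative (median -0.46), where 49.98% of all genes were positive. Their sum was 8078 and 7981 CPM in WT and 6902 and 4702 CPM in KO. Elane, neutrophil elastase, stood at 673 and 618 CPM in WT and 516 and 364 CPM in KO (adjusted p = 0.12 by edgeR), and Mpo, myeloperoxidase, at 1191 and 949.6 CPM in WT and 974 and 609 CPM in KO (adjusted p = 0.351). Among 26 tested monocyte, macrophage and dendritic genes 24 were negative (median -0.35) and Irf8 fell. Irf8, a transcription factor of monocyte, dendritic and B cells (chromosome 8, 120736358 to 120756694), stood at 82.2 and 81.8 CPM in WT and 39.4 and 30.003 CPM in KO (log2 -1.23 ± 0.23, adjusted p = 0.0162), with nearly equal WT libraries. Ltb4r1, the receptor for the leukocyte attractant leukotriene B4, stood at 52.3 and 49.6 CPM in WT and 23.5 and 20.002 CPM in KO (log2 -1.22 ± 0.26, adjusted p = 0.0314). Ncf1, a subunit of the NADPH oxidase of phagocytes, stood at 51.98 and 66.2 CPM in WT and 30.2 and 17.8 CPM in KO (log2 -1.29 ± 0.29, adjusted p = 0.0393). Fut7, which fucosylates selectin ligands, stood at 73.1 and 69.1 CPM in WT and 35.7 and 29.3 CPM in KO (log2 -1.12 ± 0.23, adjusted p = 0.0262). Ncf1 and Fut7 were picked after their values were seen. Irf8 (adjusted p = 0.0734), Ltb4r1 (0.149), Ncf1 (0.0824) and Fut7 (0.134) did not pass edgeR's test without KO replicate 3, nor did Irf8 (0.172), Ltb4r1 (0.258), Ncf1 (0.408) and Fut7 (0.261) without KO replicate 4, nor did Ncf1 (0.113) without WT replicate 2. Neutrophil and granule genes that changed numbered 2 without KO replicate 3, 0 without KO replicate 4, 5 without WT replicate 1 and 4 without WT replicate 2.

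Among 31 tested genes of lymphoid-primed progenitors 10 fell and 0 rose, with a median of -1.001. The fallen genes were 32.3% of those tested, against 0.467% over all genes. The list summed to 3035 and 4478 CPM in WT and 2239 and 2259 CPM in KO. Notch1, the receptor that directs T cell fate (chromosome 2, 26457902 to 26503822), stood at 50.9 and 119 CPM in WT and 24.1 and 21.9 CPM in KO (log2 -1.88 ± 0.33, adjusted p = 0.0124), and no other of the 20 tested genes of the Wnt and Notch list, which lacks Ryk, changed. Cd52, a small surface glycoprotein of lymphocytes, stood at 126 and 224 CPM in WT and 88.9 and 58.9 CPM in KO (log2 -1.24 ± 0.25, adjusted p = 0.0252). Both had WT replicate 2 well above WT replicate 1. Emb, embigin, a partner of lactate transporters, stood at 333 and 326 CPM in WT and 225 and 148 CPM in KO (log2 -0.82 ± 0.17, adjusted p = 0.0314), and there the WT libraries were close. H2-Ob, a chain of the protein that modulates peptide loading on MHC class II, stood at 35.6 and 73.4 CPM in WT and 14.4 and 17.8 CPM in KO (log2 -1.77 ± 0.34, adjusted p = 0.0192) and was the 1 gene to change of 24 tested MHC genes. Cd53, a tetraspanin of leukocytes, stood at 137 and 166 CPM in WT and 90.7 and 50.7 CPM in KO (log2 -1.09 ± 0.23, adjusted p = 0.0314). Clec2i, a C-type lectin-like gene, had 59 counts in WT and 1 in KO, 63.9 times as much in WT per library total (95% counting interval from 11.03 to 2567). Notch1 (adjusted p = 0.183), Cd52 (0.13), H2-Ob (0.222) and Clec2i (0.136) did not pass edgeR's test without KO replicate 3, nor did Notch1 (0.0822), Cd52 (0.232), Emb (0.426), H2-Ob (0.0739), Cd53 (0.312) and Clec2i (0.14) without KO replicate 4, nor did Notch1 (log2 -1.14, 0.0871), Cd52 (log2 -0.76, 0.133), H2-Ob (log2 -1.15, 0.199) and Clec2i (0.248) without WT replicate 2. Clec2i (adjusted p = 0.074) did not pass with limma voom. The number of changed lymphoid-primed genes was 3 without KO replicate 3, 4 without KO replicate 4, 14 without WT replicate 1 and 6 without WT replicate 2. Igll1, Ikzf3, Bcl11b, Lef1 and Ccr9 of this list had too few counts to be tested, and 0 of 8 tested T and NK cell genes passed by edgeR, DESeq2 or limma voom, with 4 at an unadjusted p under 0.05.

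Cd34 fell while most genes of the long-term HSC list that changed rose. Of 42 tested genes of that list 13 rose and 1 fell, with a median of 1.12. Together these were 33.3% of those tested, against 1.23% over all genes, and the list was chosen with earlier results of these data known. Cd34, a sialomucin that mouse long-term HSCs carry little of (chromosome 1, 194938821 to 194961292), stood at 919 and 871 CPM in WT and 623 and 415 CPM in KO (log2 -0.78 ± 0.16, adjusted p = 0.0242). Egfl7, a secreted vascular factor, stood at 229 and 299.9 CPM in WT and 158 and 156 CPM in KO (log2 -0.75 ± 0.16, adjusted p = 0.0314). Myct1, a target of Myc found in HSCs and vessels, stood at 79.97 and 74.9 CPM in WT and 160.3 and 191 CPM in KO (log2 1.18 ± 0.17, adjusted p = 0.00386). Clec1a, a C-type lectin receptor, stood at 19.3 and 13.4 CPM in WT and 35.1 and 72.6 CPM in KO (log2 1.71 ± 0.35, adjusted p = 0.0252). In Cd34 the KO libraries were further apart than the WT libraries, and both lay below them. Egfl7 (adjusted p = 0.22) did not pass edgeR's test without KO replicate 3, nor did Cd34 (log2 -0.52, 0.405), Egfl7 (0.235), Myct1 (0.053) and Clec1a (log2 1.10, 0.473) without KO replicate 4, nor did Egfl7 (0.209) without WT replicate 2. Clec1a (adjusted p = 0.0757) did not pass with limma voom. The number of changed members was 12 without KO replicate 3, 3 without KO replicate 4, 22 without WT replicate 1 and 15 without WT replicate 2.

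H2afy, Strbp, Mta2, Brd8, Atp5e and Top2a, each of which averaged at least 100 CPM, fell by less than log2 1. H2afy, now Macroh2a1, the histone variant macroH2A1 (chromosome 13, 56073622 to 56135626), was the most abundant changed gene among the lower at 3019 and 3929.9 CPM in WT and 2072 and 1454 CPM in KO (log2 -0.98 ± 0.15, adjusted p = 0.00481). Strbp, a protein that binds double-stranded RNA, stood at 615 and 643 CPM in WT and 420.4 and 403 CPM in KO (log2 -0.61 ± 0.12, adjusted p = 0.0232). Mta2, a subunit of the deacetylase complex NuRD, stood at 284 and 266 CPM in WT and 169 and 161 CPM in KO (log2 -0.74 ± 0.14, adjusted p = 0.0197), and Brd8, a bromodomain subunit of an acetyltransferase complex, at 174 and 174 CPM in WT and 115 and 91.1 CPM in KO (log2 -0.75 ± 0.17, adjusted p = 0.0415). For Strbp, Mta2 and Brd8 the WT libraries were close to each other, and both KO libraries were below them. Atp5e, a subunit of ATP synthase, stood at 459 and 458 CPM in WT and 316 and 289 CPM in KO (log2 -0.60 ± 0.13, adjusted p = 0.033) and was the 1 gene to change of 75 nuclear-encoded respiratory chain genes. Top2a, the topoisomerase of dividing cells, was at 1108 and 1262 CPM in WT and 869 and 790.4 CPM in KO (log2 -0.51 ± 0.12, adjusted p = 0.0443). 2810417H13Rik, now Pclaf, a partner of the replication clamp PCNA, stood at 461 and 519 CPM in WT and 328 and 333 CPM in KO (log2 -0.57 ± 0.13, adjusted p = 0.0443); it was picked after its values were seen, and 10.8% of its end recurs elsewhere. Strbp (adjusted p = 0.182), Mta2 (0.158), Brd8 (0.123), Atp5e (0.18), Top2a (0.204) and 2810417H13Rik (0.261) did not pass edgeR's test without KO replicate 3, nor did H2afy (0.0822), Strbp (0.305), Mta2 (0.221), Brd8 (0.444), Atp5e (0.424), Top2a (0.535) and 2810417H13Rik (0.362) without KO replicate 4, nor did Brd8 (0.0714), Top2a (0.121) and 2810417H13Rik (0.155) without WT replicate 2.

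Most cell cycle genes had small negative values. Over all genes tested 49.98% were positive, and 1143 of 10494 had an unadjusted p under 0.05. Of 60 G1/S and replication genes 0 passed by edgeR, DESeq2 or limma voom, 11 had an unadjusted p under 0.05, 49 were negative and the median was -0.22. Of 71 G2/M and mitosis genes 1 (Top2a) fell, 59 were negative and the median was -0.24. Gins1, a subunit of the replicative helicase, had 36.9 and 36.3 CPM in KO against 63.98 and 79.6 CPM in WT and did not pass (adjusted p = 0.056 by edgeR). Rpa2, which coats single-stranded DNA, had 404 and 342 CPM in KO against 494 and 582 CPM in WT (adjusted p = 0.0902). Both genes had both KO libraries below both WT libraries, as did 20.6% of all genes tested. Cenpf, a kinetochore protein of mitosis, had 168 and 195 CPM in KO against 248 and 257 CPM in WT (adjusted p = 0.173).

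Ppic, Zfand5 and Oxr1, abundant genes in no list, rose by less than log2 1. Ppic, cyclophilin C, a protein folding enzyme, stood at 128 and 84.6 CPM in WT and 198 and 206 CPM in KO (log2 0.93 ± 0.19, adjusted p = 0.0249). Zfand5, a zinc finger protein that stimulates the proteasome, stood at 232 and 203 CPM in WT and 320.0 and 356 CPM in KO (log2 0.63 ± 0.14, adjusted p = 0.0406). Oxr1, a protein of resistance to oxidation, stood at 108 and 130.2 CPM in WT and 184 and 206 CPM in KO (log2 0.71 ± 0.16, adjusted p = 0.0443). Each had both KO libraries above both WT libraries, as all the higher genes did. Kcng1, Gfra2 and Ablim1, picked after their values were seen, fell, and the first of them was nearly absent from KO: Kcng1, a potassium channel subunit, with 51 counts in WT and 1 in KO, 55.2 times as much in WT per library total (95% counting interval from 9.48 to 2224.5). Gfra2, the receptor for neurturin, stood at 7.63 and 12.7 CPM in WT and 0.305 and 1.11 CPM in KO (log2 -3.82 ± 0.85, adjusted p = 0.0402), and Ablim1, an actin-binding LIM protein, at 47.6 and 67.6 CPM in WT and 25.95 and 14.8 CPM in KO (log2 -1.48 ± 0.30, adjusted p = 0.0252). Ppic (adjusted p = 0.19), Zfand5 (0.178), Oxr1 (0.18), Kcng1 (0.131), Gfra2 (0.243) and Ablim1 (0.0734) did not pass edgeR's test without KO replicate 3, nor did Ppic (0.164), Zfand5 (0.424), Oxr1 (0.408), Kcng1 (0.186), Gfra2 (0.144) and Ablim1 (0.253) without KO replicate 4, nor did Ppic (0.107), Zfand5 (0.135), Kcng1 (0.127), Gfra2 (0.388) and Ablim1 (0.0897) without WT replicate 2, nor did Oxr1 (0.131) without WT replicate 1. Oxr1 (adjusted p = 0.0517), Kcng1 (0.0565) and Gfra2 (0.211) did not pass with limma voom.

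**Figure D3:**
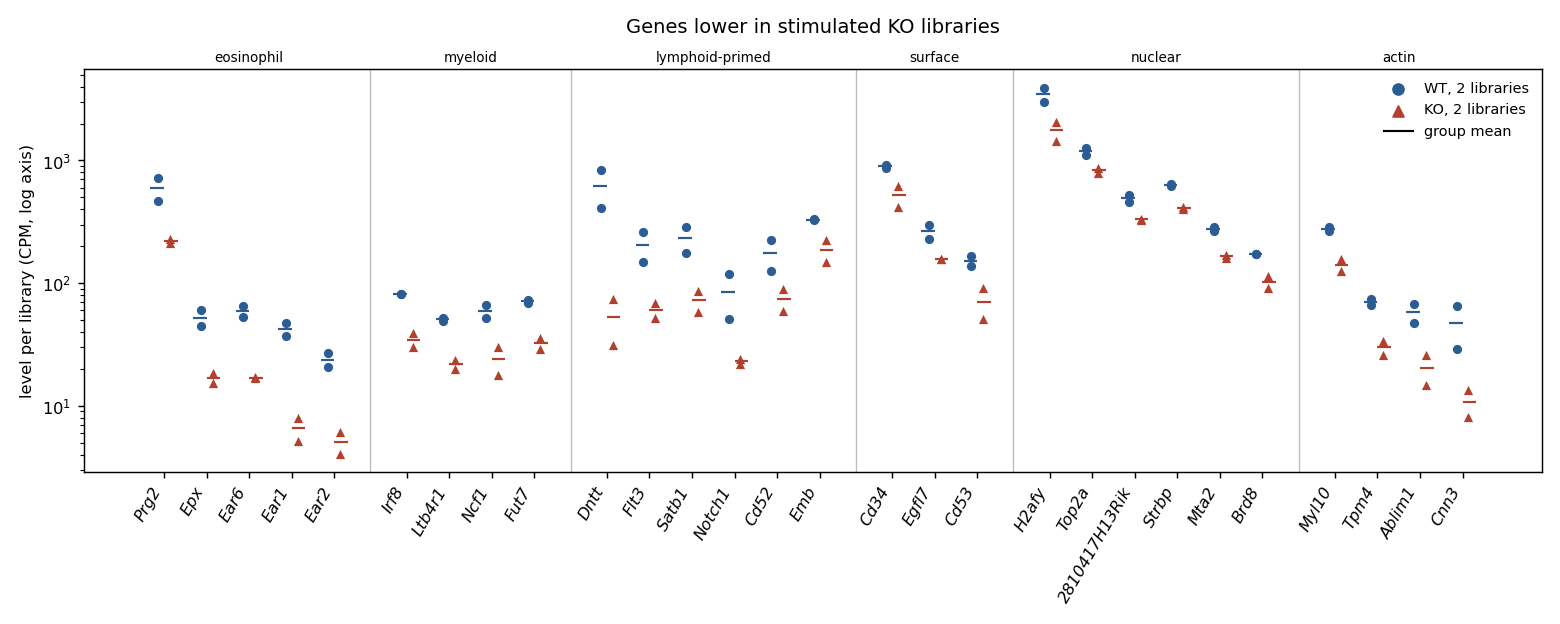
Level of 28 genes lower in KO in each library (CPM, logarithmic y axis), drawn as in the plot of the higher genes and ordered by role. Both KO libraries lie below both WT libraries in every gene shown, as in all the lower genes, and the 2 WT libraries are further apart in the lymphoid genes Dntt, Notch1 and Cd52 than in the nuclear genes Strbp, Mta2 and Brd8. Ncf1, Fut7, Ablim1 and 2810417H13Rik were chosen after their values were seen.

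The enzymes that make and use NAD did not pass. Of 31 tested genes of NAD metabolism 0 changed by edgeR, DESeq2 or limma voom and 3 had an unadjusted p under 0.05, with a median of -0.04, 15 positive and 16 negative. Parp8, an ADP-ribosyltransferase, had the smallest p among them at 31.99 and 44.9 CPM in WT and 16.8 and 17.04 CPM in KO (adjusted p = 0.0854 by edgeR). Haao and Kmo, enzymes of NAD synthesis from tryptophan, followed with adjusted p = 0.354 and 0.379. Bst1, the neighbour of Cd38 that encodes a related enzyme, was counted 9 and 17 times in WT and 0 times in either KO library and was too rare for the test. Of 52 tested calcium channels, pumps and sensors 1 rose, S100a6, a small calcium-binding protein, at 169 and 140.0 CPM in WT and 233 and 265 CPM in KO (log2 0.69 ± 0.16, adjusted p = 0.0432), and the list's median was -0.01. S100a6 did not pass edgeR's test without KO replicate 3 (adjusted p = 0.17), KO replicate 4 (0.424) or WT replicate 2 (0.179).

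Early response genes were mostly positive, and edgeR called none of them. Of 28 tested genes of immediate early response and MAPK feedback 0 changed, also by DESeq2 and limma voom, 13 had an unadjusted p under 0.05, 23 were positive and the median was 0.46, where 49.98% of all genes were positive. Summed over the list, the level was 1453 and 1754 CPM in WT and 1702 and 2632 CPM in KO. By this sum KO replicate 3 lay between the WT libraries, and KO replicate 4 alone lay above them. Klf6, a zinc finger factor, had 83.1 and 143 CPM in KO against 59.3 and 62.6 CPM in WT (adjusted p = 0.1 by edgeR). Egr1, a zinc finger factor induced by growth signals, had 51.9 and 210.4 CPM in KO against 20.4 and 58.2 CPM in WT (adjusted p = 0.134) and its groups overlapped. Fos had 36.3 and 65.9 CPM in KO against 13.8 and 32.6 CPM in WT (adjusted p = 0.199). In Klf6 and Egr1 KO replicate 4 stood above the other 3 libraries. Changed members numbered 1 without KO replicate 3, 0 without KO replicate 4, 3 without WT replicate 1 and 4 without WT replicate 2. Cytokine receptors and STAT5 targets had 1 of 45 higher, Socs2, a brake on cytokine receptors at 16.4 and 31.1 CPM in WT and 56.2 and 87.4 CPM in KO (log2 1.59 ± 0.31, adjusted p = 0.0207), and 2 lower, the cytokine receptor genes Flt3 and Il7r. Il7r stood at 6.54 and 43.05 CPM in WT and 0.611 and 0 CPM in KO, with WT replicate 2 far above WT replicate 1. Socs2 (adjusted p = 0.0749), Flt3 (0.0537) and Il7r (log2 -9.09, 0.169) did not pass edgeR's test without KO replicate 3, nor did Socs2 (0.232) and Il7r (0.064) without KO replicate 4, nor did Il7r (0.345) without WT replicate 2. Il7r (adjusted p = 0.233) did not pass with limma voom and Il7r (0.0812) did not pass with DESeq2. Of 22 tested NF-κB and inflammatory genes 0 passed by edgeR, DESeq2 or limma voom, 4 had an unadjusted p under 0.05, and the median was 0.26.

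Growth and housekeeping lists held no or single changed genes. The following had 0 changed members by edgeR, DESeq2 and limma voom: 80 ribosomal proteins (median 0.02, 9 at an unadjusted p under 0.05), 34 glycolysis genes (0.01, 7), 25 heat shock proteins (0.01, 1) and 52 genes of cholesterol and fatty acids (0.04, 4). The same held for 57 DNA repair genes (-0.05, 1), 62 genes of autophagy and the lysosome (0.07, 6), 25 CDK inhibitors and quiescence genes (0.08, 5) and 11 mitochondrially encoded genes (-0.13, 2). Txnip, an inhibitor of thioredoxin and glucose uptake, had 376 and 607 CPM in KO against 254 and 342 CPM in WT (adjusted p = 0.111 by edgeR), and Lpl, lipoprotein lipase, 45.2 and 45.6 CPM in KO against 21.8 and 21.7 CPM in WT (adjusted p = 0.073). Of 64 Myc targets and ribosome biogenesis genes Mycn alone changed, and of 31 erythroid genes Car2 alone, with a median of 0.08. Of 58 tested genes of the list of chromatin and DNA methylation regulators Satb1 alone changed. H2afy, Mta2 and Brd8, which fell, are not in that list.

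**Figure D4:**
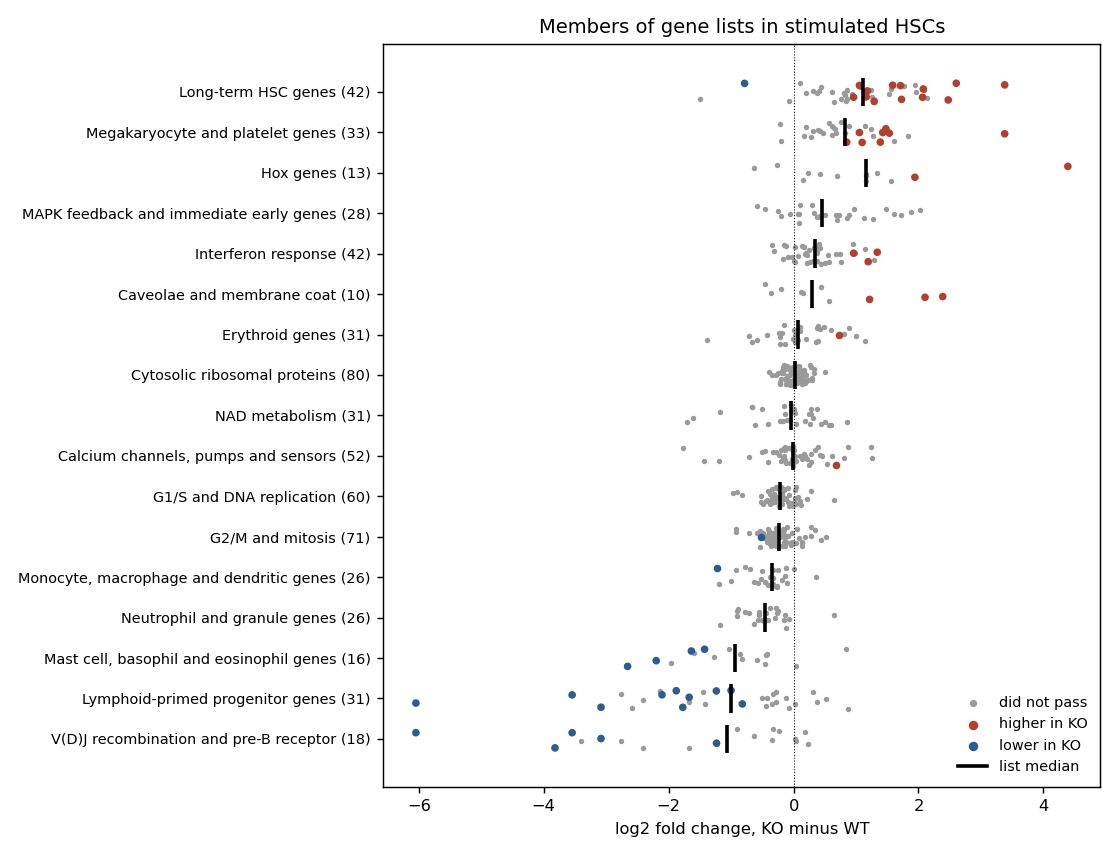
Log2 fold change of KO over WT (x axis) for the tested members of 17 gene lists, 1 list per row with its number of tested genes; red and blue points passed higher and lower, grey points did not, and black bars are list medians. Medians run from 1.16 for Hox genes, which had low levels, to -1.07 for V(D)J recombination genes, and those of ribosomal proteins, NAD metabolism and calcium genes lie close to 0.

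Genes linked to Cd38 on chromosome 5 were examined separately. Within 20 Mb of the middle of Cd38, 131 genes were tested, 2 rose and 0 fell; on the whole of chromosome 5, 5 of 667 rose and 5 fell. Cc2d2a, a protein of the base of cilia 0.189 Mb before Cd38 (chromosome 5, 43662374 to 43740975), stood at 5.82 and 6.87 CPM in WT and 21.1 and 31.1 CPM in KO (log2 2.03 ± 0.41, adjusted p = 0.0252). Evc2, another ciliary gene 6.51 Mb before it, had 0 counts in WT and 46 in KO, at least 14.2-fold more against a floor of 3 counts. Both were picked for their position. Fbxl5, a ubiquitin ligase subunit of iron balance that lies between Cc2d2a and Cd38, stood at 26.2 and 34.4 CPM in WT and 43.7 and 65.9 CPM in KO and did not pass (adjusted p = 0.197 by edgeR). Nsg1 stood at 3.64 and 5.06 CPM in WT and 19.5 and 16.3 CPM in KO (adjusted p = 0.0644) and Slc2a9, a urate transporter, at 38.9 and 32.2 CPM in WT and 61.4 and 85.6 CPM in KO (adjusted p = 0.0532), and neither passed. In each both KO libraries were above both WT libraries, as in 21.1% of all genes tested. Cc2d2a (adjusted p = 0.0924) and Evc2 (0.11) did not pass edgeR's test without KO replicate 3, nor did Cc2d2a (0.361) and Evc2 (not tested) without KO replicate 4, nor did Evc2 (0.0796) without WT replicate 2. Cc2d2a (adjusted p = 0.0861) and Evc2 (0.0691) did not pass with limma voom. As shares, 2 of 131 rose within 20 Mb against 0.762% over all genes. Of the 2, Evc2 entered the test through its KO counts alone. On the whole of chromosome 5, 1.5% of the genes changed in either direction, against 1.23% over all genes. Several other chromosomes had larger shares, up to 2.3% on chromosome 6.

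**Figure D5:**
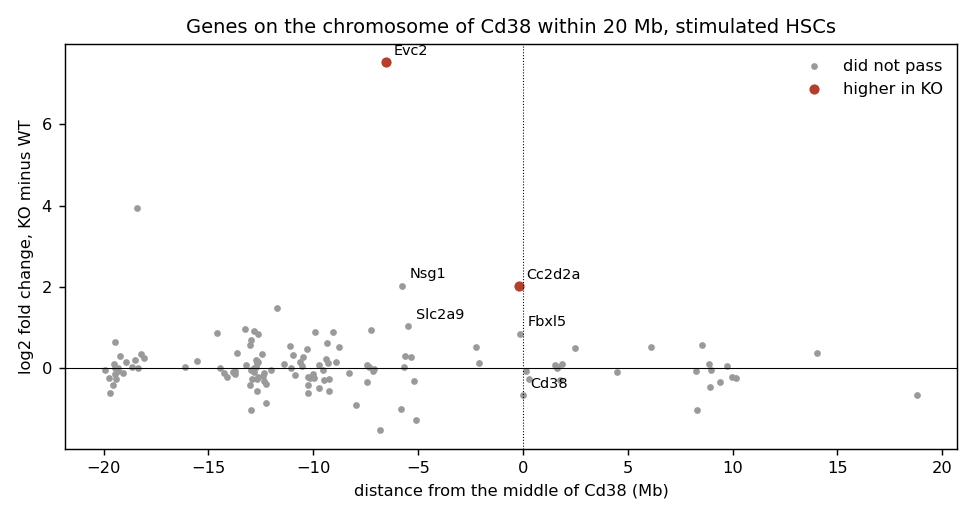
Log2 fold change of KO over WT (y axis) of the genes tested within 20 Mb of Cd38, against distance from the middle of Cd38 in Mb (x axis); red points passed higher, and none passed lower. Cc2d2a sits beside Cd38 at 0.189 Mb and Evc2 at 6.51 Mb, while Cd38 itself and the remaining points did not pass.

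The levels of these genes in freshly isolated cells of mice of the same age are given as a description. In a fit of the 2 WT and 2 KO fresh libraries alone, with a common dispersion of 0.792, edgeR called 0 of 8716 genes (0%) between KO and WT, and 435 had an unadjusted p under 0.05. Of the 80 genes higher after stimulation 73 could be tested there, and 42 were positive. Of the 49 lower genes 23 could be tested, and 11 were negative. Over the 8515 genes tested in both fits 4293 (50.4%) had the same sign in both. The eosinophil genes Prg2, Epx, Ear1, Ear2 and Ear6 had 0 counts in all 4 young fresh libraries. Pf4 stood at 328 and 165 CPM in WT and 279 and 561 CPM in KO there, Mmrn1 at 139 and 171 CPM in WT and 241 and 261 CPM in KO and Angpt1 at 868 and 1043 CPM in WT and 807 and 1266 CPM in KO. Whether the genotype difference itself changed with stimulation was not tested here.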

How the data were processed

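The 4 libraries were 3′ tag libraries (QuantSeq 3′ FWD, per the labels' protocols) of cytokine-stimulated HSCs. The authors deposited raw counts per gene symbol for 35976 symbols. Per the submitters' processing notes, HISAT2 2.2.1, HTSeq 0.9.1, DESeq2 1.34.0 and the build mm10 were used. The annotation, strand setting and filters are not given in the sources used here.

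From these counts, KO was tested against WT on the 4 libraries alone with edgeR 4.0.16 (R 4.3.3), using TMM scaling, filterByExpr (minimum count 10, minimum total 15) and the quasi-likelihood test with Benjamini-Hochberg adjustment over all 10494 genes tested, at an adjusted p under 0.05. All adjusted p-values in the report are edgeR's unless another tool is named. An error after ± is the standard error of the log2 fold change. Alternatives were RLE scaling, no filter, a filter of 5 CPM, DESeq2 1.42.0, limma 3.58.1 voom, all 12 libraries in 1 fit and each library left out in turn.

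Of 2013 genes in 51 lists, 1977 were in the table. The members and lists were chosen with earlier results of these data known. The text names Cd38, the 30 higher and 25 lower genes of smallest p that averaged 5 CPM or more, a gene name and no overlap between genotypes, those changed genes that averaged 100 CPM or more, and changed list members. A few genes and 1 list that this rule covers are not reported here. For lists without a changed member, up to 3 members of smallest p are given. Positions and promoters are those of RefSeq GRCm38.p6. Sequence shared with other genes was counted as 50-base words in the last 500 bases of transcripts.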

Additional observations from a re-analysis of the deposited data

How the results depend on the processing

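edgeR called 129 genes, 80 higher and 49 lower. RLE scaling (130 genes), the 5 CPM filter (131) and DESeq2 (129) gave counts close to this. Without a filter 340 genes passed (204 higher, 136 lower), including each of the 129, and 15455 were tested. With limma voom 84 passed (52 higher, 32 lower), 83 of them among the 129. In 1 fit of all 12 libraries 0 passed (0 higher, 0 lower), and 57 had an unadjusted p under 0.05. With 1 library left out, 24 to 296 genes passed, 15 to 169 higher and 9 to 127 lower. The lowest of these counts came without KO replicate 4, which left 23 of the 129, and the highest without WT replicate 1, which kept 121. Without KO replicate 3 48 passed (38 of the 129), and without WT replicate 2 129 passed (81 of the 129). The higher genes were 62.0% of the calls in the comparison as reported, 76.0% when WT replicate 2 was left out and 77.1% when KO replicate 3 was. The cause of these shifts was not tested. No fold change of the 129 genes turned its sign in any alternative that gave it a value. No paired analysis was possible because the replicate numbers in the titles are 1 and 2 for WT and 3 and 4 for KO, so no number is shared. With 2 libraries a genotype and 2692245 to 3249721 counts a library, genes of a few CPM rest on few counts each.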
